A study of Homo sapiens with 6 samples.

Results

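The 10 genes described here are 2 hypoxia-inducible factor (HIF) alpha subunits (HIF1A and EPAS1), 2 HIF prolyl hydroxylases (EGLN1 and EGLN3), the vascular endothelial growth factors VEGFA and VEGFB, and 4 genes known as HIF targets (ADM, CA9, BNIP3 and BHLHE40). They were chosen by name, with the earlier results of these arrays, including changes with ruxolitinib, already known, so counts and medians over them are descriptions of chosen genes. Each was represented by the array row with the highest mean over all 6 arrays among rows annotated with exactly 1 gene symbol, so this mean level is a description and is not tested. Of the 10 genes, 9 had such a row, out of 33616 genes in all, and CA9 was not analysed here. EGLN3 had 3 rows and the brightest was used. No other member had a further row.

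The cells were MHH-cALL4, an established human line from B-lineage acute lymphoblastic leukaemia of the Ph-like subtype, which resembles Philadelphia chromosome-positive leukaemia in its expression. The treated group was 3 arrays of cells given 1 µM ruxolitinib, an inhibitor of the kinases JAK1 and JAK2, for 12 h, set against 3 arrays of cells given the vehicle DMSO for 12 h, all grown in RPMI with serum and antibiotics. Titles of the ruxolitinib arrays name MHH-cALL5, whereas the cell line field of all 6 samples names MHH-cALL4, which was followed. The study has 1 cell line, no hypoxia treatment is named in the labels, and the labels do not say whether replicates were separate cultures, so the p-values measure only the spread between these arrays.

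HIF alpha subunits pair with ARNT and bind DNA at hypoxia response elements. When oxygen is present, EGLN enzymes hydroxylate the alpha subunits, the VHL ubiquitin ligase recognises the mark, and the subunits are destroyed, so HIF activity is set largely by protein stability and can change with no change in HIF1A RNA. In lymphoid cells, growth factor and cytokine signals are also known to act on HIF1A and on several of its targets, and BHLHE40, a transcriptional repressor, is known to respond to hypoxia and to cytokines. RNA was measured in bulk, so fewer cells expressing a gene and less of its RNA per cell cannot be told apart.

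Levels are log2 signals, on which 1 unit is a doubling, and changes are ruxolitinib minus DMSO. All 4 JAK-STAT response genes used as a check of the labels (CISH, SOCS2, PIM1 and CCND2) were lower with ruxolitinib on every array, with log2 changes of -6.52 to -1.37. The 8 measured B-lineage markers lay between 11.51 and 19.74 with ruxolitinib and between 11.72 and 19.56 with DMSO, and the 6 T-cell markers between 3.56 and 5.79 with ruxolitinib and between 3.40 and 6.24 with DMSO. The 4 myeloid markers lay between 3.93 and 6.25 with ruxolitinib and between 3.59 and 6.38 with DMSO. The 3 erythroid markers lay between 3.02 and 5.09 with ruxolitinib and between 3.43 and 4.94 with DMSO. The 5 endothelial markers lay between 3.08 and 8.76 with ruxolitinib and between 3.15 and 8.27 with DMSO, PECAM1 being the highest of these in both groups. In none of these 5 marker lists did a gene pass the test (limma; 1 T-cell marker, lower, and 1 B-lineage marker, higher, had an unadjusted p under 0.05). Ruxolitinib replicate 3 and DMSO replicate 1 stood apart on the second principal component (29.8% of the variance) and had the highest mean level of 215 rRNA, snRNA and snoRNA genes (8.45 and 8.48, against 7.94 to 8.17 on the other arrays); their part in the results below was not tested, and values without both arrays are given where they matter. Tested with limma over all genes, 384 genes (1.14%) passed, 350 (1.04%) lower and 34 (0.101%) higher, at an adjusted p under 0.05. After quantile normalization these were 220 and 56, and after cyclic loess 244 and 59.

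BHLHE40 and VEGFA fell with ruxolitinib, and none of the other 7 measured genes passed the test. Of the 9 genes, 2 passed as lower and 0 as higher (limma; with no adjustment for the number of genes, 4 and 0 had a p under 0.05), against 1.04% of all genes lower and 1.14% called either way. The same 2 had a log2 change of -1 or lower, against 1.03% of all genes. Among genes above the median level, 2.02% passed as lower. At an unadjusted p under 0.05 (limma), 2304 of all 33616 genes were lower and 901 higher. Of the 16808 above the median level, 2041 were lower and 607 higher. The median log2 change of the 9 genes was -0.41, against -0.02 for all genes. In 4 of the 9 (BHLHE40, VEGFA, BNIP3 and EPAS1) every ruxolitinib array lay below every DMSO array. This held for 9.03% of all genes, and for 2336 of the 16808 above the median level. None of the 9 lay above DMSO on every ruxolitinib array, which held for 5.14% of all genes and 829 of those 16808.

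**Figure D1:**
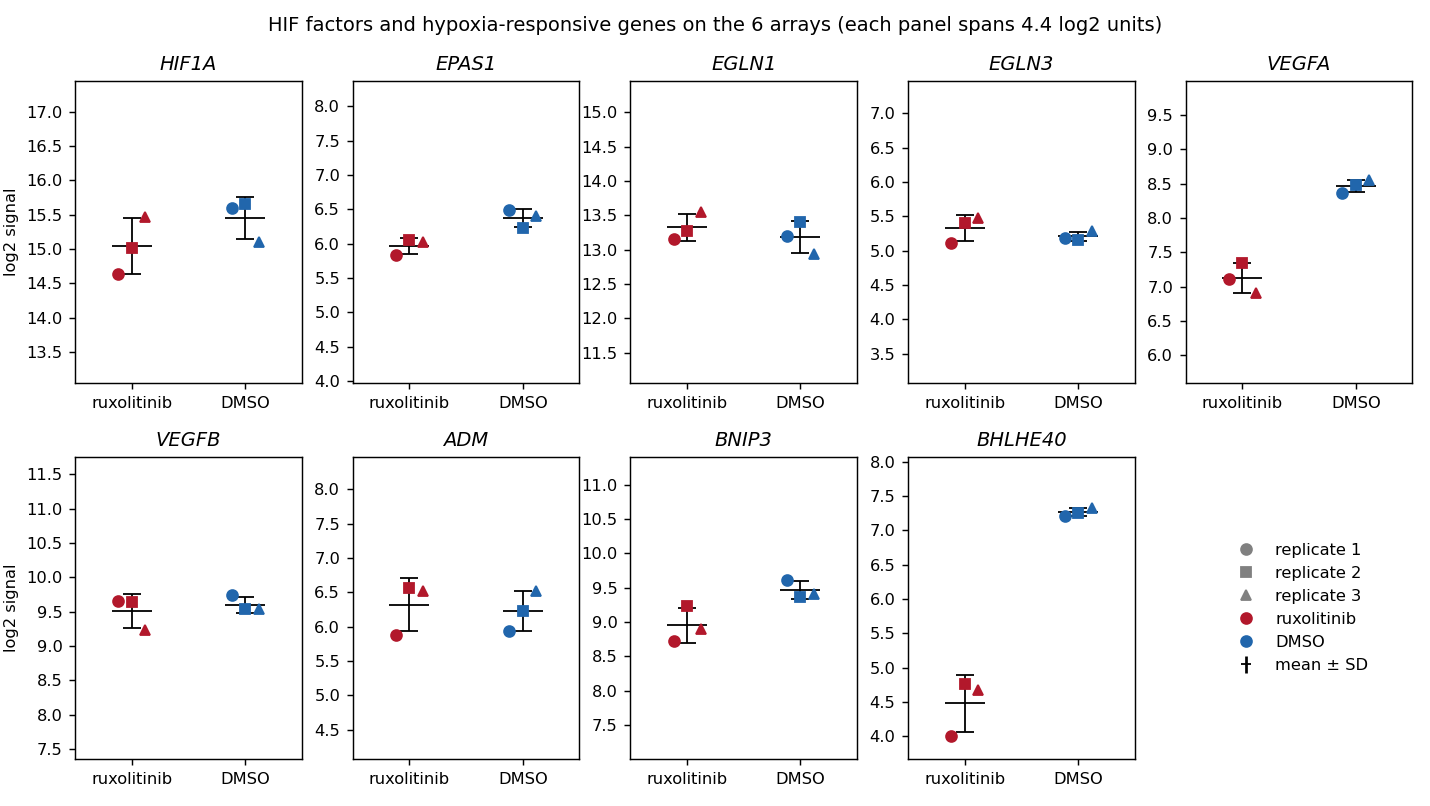
Log2 signal of the 9 measured genes on each array, ruxolitinib at the left and DMSO at the right of each panel, with marker shapes for the replicate number and bars for mean ± SD (n = 3 per group). Each panel spans the same number of log2 units. The groups are separated widely for BHLHE40 and VEGFA, narrowly for BNIP3 and EPAS1, and overlap for the other 5 genes.

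Among the HIF target genes, BHLHE40 changed most. Its log2 signal was 4.002, 4.75 and 4.68 on the ruxolitinib arrays, against 7.21, 7.25 and 7.33 on the DMSO arrays. The DMSO arrays lay close together, the ruxolitinib arrays spread more, and the groups were far apart. The mean was 4.48 ± 0.41 with ruxolitinib and 7.26 ± 0.06 with DMSO (SD, n = 3 each), a log2 change of -2.78 ± 0.22 (SE; 95% interval -3.26 to -2.31; adjusted p = 0.000101, limma). This left 14.5% of the DMSO signal and was a 6.89-fold difference, ranking 14 of 33616 from the largest fall. Because the ruxolitinib level lay below the median level of all genes (5.25), where signal cannot be told from background without detection calls, the fold may understate the fall. With each array left out in turn the change lay between -2.92 and -2.55, and BHLHE40 passed the test in all 6 of these fits.

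BNIP3 encodes a receptor on the outer mitochondrial membrane that directs mitochondria to autophagy. It had 8.73, 9.23 and 8.89 with ruxolitinib, against 9.62, 9.37 and 9.41 with DMSO. All 3 ruxolitinib values were below the lowest DMSO value, replicate 2 by the least. The log2 change was -0.51 ± 0.19 (95% interval -0.93 to -0.10) and did not pass over all genes (adjusted p = 0.362, limma; unadjusted p = 0.0202). ADM encodes adrenomedullin, a vasodilator peptide. It had 5.88, 6.56 and 6.53 with ruxolitinib and 5.94, 6.23 and 6.52 with DMSO, so that the groups overlapped entirely, with a log2 change of 0.10 ± 0.23 (95% interval -0.41 to 0.60; adjusted p = 0.968, limma). The sign of the ADM change turned when ruxolitinib replicate 2, ruxolitinib replicate 3 or DMSO replicate 1 was left out, with values of -0.0226, -0.00436 and -0.0458, and without both arrays that stood apart it was -0.15.

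The DNA just upstream of these genes is shown because it holds ACGTG, 1 form of the core of the hypoxia response element. It does so in BHLHE40, which fell, and in BNIP3 and EGLN1, which did not pass the test. The other form, GCGTG, is not marked. The sequences are the 250 bases before the RefSeq start on GRCh38.p14, read 5′ to 3′ on the gene's strand, with capitals marking ACGTG on either strand (its reverse complement, CACGT, where the match is on the opposite strand). BHLHE40 lies at chr3:4979187-4979436 on the plus strand, BNIP3 at chr10:131981924-131982173 on the minus strand, and EGLN1 at chr1:231422288-231422537 on the minus strand. P4HA1 (chr10:73096867-73097116, minus strand) and DDIT4 (chr10:72273674-72273923, plus strand) are hypoxia-responsive genes described below that fell.
BHLHE40: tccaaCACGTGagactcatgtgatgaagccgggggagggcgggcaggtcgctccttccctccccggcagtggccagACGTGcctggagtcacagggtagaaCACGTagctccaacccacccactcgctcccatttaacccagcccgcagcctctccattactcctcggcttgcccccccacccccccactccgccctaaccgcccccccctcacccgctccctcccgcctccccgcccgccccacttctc
BNIP3: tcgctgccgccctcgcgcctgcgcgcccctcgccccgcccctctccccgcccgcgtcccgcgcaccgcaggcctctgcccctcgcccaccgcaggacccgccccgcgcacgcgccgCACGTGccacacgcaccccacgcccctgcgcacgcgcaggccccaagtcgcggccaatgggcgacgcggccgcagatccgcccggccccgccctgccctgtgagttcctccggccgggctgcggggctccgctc
EGLN1: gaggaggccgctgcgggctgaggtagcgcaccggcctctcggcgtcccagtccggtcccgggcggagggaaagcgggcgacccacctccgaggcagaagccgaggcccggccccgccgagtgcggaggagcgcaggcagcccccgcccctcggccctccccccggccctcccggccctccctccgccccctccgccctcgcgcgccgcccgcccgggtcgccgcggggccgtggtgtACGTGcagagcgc
P4HA1: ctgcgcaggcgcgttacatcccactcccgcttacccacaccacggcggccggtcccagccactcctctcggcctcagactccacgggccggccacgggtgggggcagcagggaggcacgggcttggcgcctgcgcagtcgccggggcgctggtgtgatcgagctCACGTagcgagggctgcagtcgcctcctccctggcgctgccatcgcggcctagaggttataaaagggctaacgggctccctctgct
DDIT4: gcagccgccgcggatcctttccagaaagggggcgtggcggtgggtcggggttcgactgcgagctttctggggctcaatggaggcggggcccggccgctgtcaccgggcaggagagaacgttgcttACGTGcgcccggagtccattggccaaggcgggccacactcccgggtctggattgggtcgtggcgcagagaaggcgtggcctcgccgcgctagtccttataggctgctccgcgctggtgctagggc

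BHLHE40 had 4 matches to ACGTG in this window, counting both strands. Those that begin 245 and 244 bases before the start overlap in CACGTG, an E-box that reads the same on both strands, and the others begin 174 and 149 bases before the start. BNIP3 had 2 matches, which overlap in 1 CACGTG beginning 134 bases before the start, and EGLN1 had 1, beginning 13 bases before it. Of the 10 genes, 9 matched an entry of the RefSeq promoter table, all but VEGFA. In these 9, ACGTG was found for 4 genes (BHLHE40, BNIP3, EGLN1 and CA9) and GCGTG, the other form of the core, for 5. Those 5 were HIF1A, EPAS1, VEGFB, ADM and BNIP3, and none of them passed the test. CACGTG was found for 2 and TTCNNNGAA, a core bound by STAT dimers, for 0. The same letters, searched on both strands, occurred in 18.5%, 32.2%, 6.34% and 6.57% of all 35116 windows of this length. These are shares of windows, whereas the counts above are of genes. Counted by gene, ACGTG was found for 21.7% of 27305. Matches are descriptions of letters in this window.

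VEGFA, the main growth factor for endothelial cells and a HIF target, fell. Its log2 signal was 7.12, 7.34 and 6.91 with ruxolitinib, against 8.37, 8.47 and 8.55 with DMSO. The highest ruxolitinib array was more than 1 log2 unit below the lowest DMSO array. The mean was 7.12 ± 0.22 with ruxolitinib and 8.46 ± 0.09 with DMSO (SD, n = 3 each), a log2 change of -1.34 ± 0.18 (SE; 95% interval -1.74 to -0.94; adjusted p = 0.00493, limma). This was a 2.53-fold difference, with 39.5% of the DMSO signal left, ranking 134 of 33616 from the largest fall. VEGFA passed the test with each of the 6 arrays left out (log2 change -1.45 to -1.23, adjusted p up to 0.0411, limma). It missed the threshold when all 135750 rows of the table were tested together (adjusted p = 0.0501, limma).

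VEGFB is a related ligand that binds the receptor FLT1. It lay at 9.66, 9.64 and 9.23 with ruxolitinib and at 9.74, 9.53 and 9.53 with DMSO, with overlapping groups. Its log2 change was -0.09 ± 0.19 (95% interval -0.50 to 0.32; adjusted p = 0.959, limma), and its sign turned to 0.0911 after quantile normalization, 0.0461 after cyclic loess and 0.0474 without ruxolitinib replicate 3. The log2 ratio of VEGFA to VEGFB on the same array lay between -2.54 and -2.29 with ruxolitinib and between -1.37 and -0.98 with DMSO, a difference of -1.25. This ratio was lower on every ruxolitinib array (two-sided exact permutation test, p = 0.1, the smallest that 3 against 3 arrays allow, and 0.2 adjusted over the 4 gene pairs compared). As VEGFA was chosen with earlier results known and VEGFB changed little, the ratio mostly restates the fall of VEGFA and adds no support. Of the 8 other VEGF family ligands and receptors, 0 passed the test in either direction (limma; 0 at an unadjusted p under 0.05), with log2 changes of -0.29 to 0.22. KDR, a main VEGFA receptor of endothelial cells, had -0.29 ± 0.20, PGF had 0.18 ± 0.17 and VEGFD 0.22 ± 0.23. KDR lay at 3.13 with ruxolitinib and 3.42 with DMSO, below the median level of all genes (5.25), where signal was not told from background. Of the 4 genes of the adrenomedullin receptor, RAMP3 (0.14 ± 0.20), CALCRL (-0.10 ± 0.22) and RAMP2 (0.08 ± 0.19) had the smallest adjusted p. None of the 4 passed (limma, with 0 at an unadjusted p under 0.05). All 4 lay below the same median, between 3.65 and 5.24 with ruxolitinib and between 3.65 and 4.99 with DMSO. Whether they were above background was not tested. For lists of 8 and 4 genes, no call is near the 1.14% of all genes called either way.

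The alpha subunits themselves did not pass the test. HIF1A had 14.64, 15.02 and 15.47 with ruxolitinib, against 15.60, 15.66 and 15.10 with DMSO. Ruxolitinib replicate 3 lay above DMSO replicate 3, so the groups overlapped. The mean was 15.04 ± 0.41 with ruxolitinib and 15.45 ± 0.31 with DMSO (SD, n = 3 each), and the log2 change was -0.41 ± 0.24 (95% interval -0.93 to 0.12; adjusted p = 0.692, limma). Leaving out ruxolitinib replicate 1 made it -0.21, and leaving out ruxolitinib replicate 3 made it -0.62. The interval extends to a 1.91-fold fall, so these arrays are compatible with a fall of up to that size.

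EPAS1 encodes the other HIF alpha subunit measured here. It had 5.83, 6.05 and 6.02 with ruxolitinib, against 6.49, 6.22 and 6.40 with DMSO, with no overlap between the groups. Its log2 change of -0.41 ± 0.17 (95% interval -0.79 to -0.02) did not pass over all genes (adjusted p = 0.477, limma; unadjusted p = 0.0388). The log2 ratio of HIF1A to EPAS1 did not differ between the groups beyond its spread (difference -0.000317; exact permutation p = 1 before and after adjustment over the 4 pairs).

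The prolyl hydroxylases EGLN1 and EGLN3 set the oxygen response and are themselves known HIF targets. EGLN1 had 13.16, 13.28 and 13.55 with ruxolitinib, against 13.20, 13.41 and 12.94 with DMSO, and EGLN3 had 5.11, 5.40 and 5.47 with ruxolitinib, against 5.18, 5.16 and 5.29 with DMSO. The groups overlapped for both genes. The log2 change was 0.14 ± 0.19 for EGLN1 (95% interval -0.28 to 0.57; adjusted p = 0.923, limma) and 0.12 ± 0.18 for EGLN3 (95% interval -0.27 to 0.51; adjusted p = 0.931, limma). The other EGLN3 rows, which the choice of the brightest row left out, had means of 3.98 and 4.26 with ruxolitinib and 3.85 and 4.14 with DMSO, and log2 changes of 0.13 and 0.12. EGLN3 lay near the median level of all genes, and whether it was above background was not tested. The log2 ratio of EGLN1 to EGLN3 differed between the groups by 0.02 (exact permutation p = 0.8, and 1 adjusted over the 4 pairs).

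**Figure D2:**
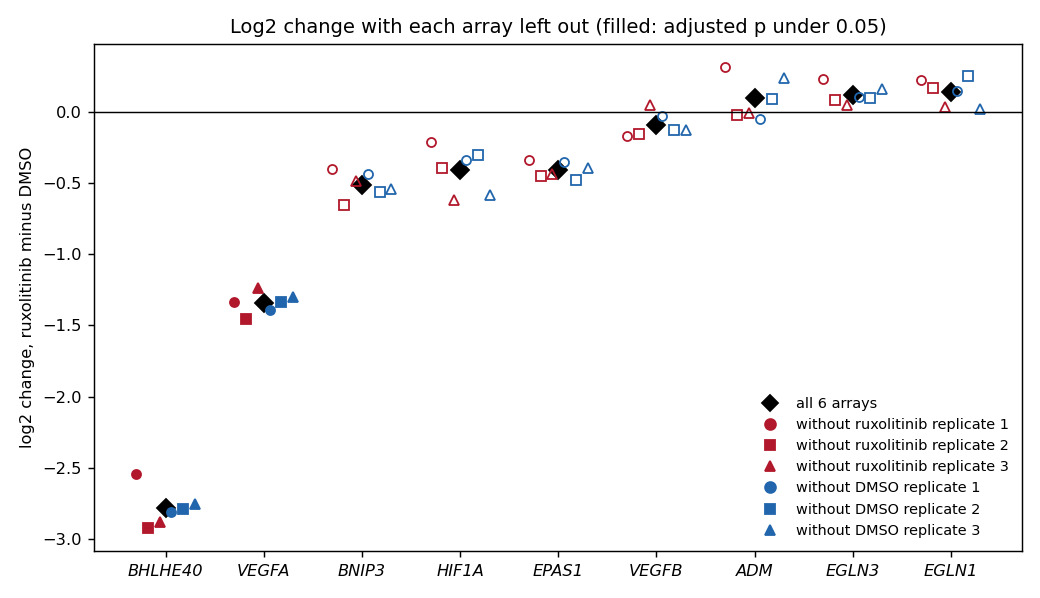
Log2 change (ruxolitinib minus DMSO, vertical axis) of the 9 measured genes with all 6 arrays (black diamonds) and with each array left out in turn (coloured markers, filled where the adjusted p was under 0.05, limma). BHLHE40 and VEGFA are filled throughout, the other 7 are unfilled throughout, and ADM and VEGFB have values on both sides of 0.

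Measured genes next to members on the chromosome gave no call. Of the 20 genes next to a member in the RefSeq order, 9 were measured and none passed the test (limma). For so few genes this is near the 1.14% of all genes called either way. No neighbour of VEGFA, EPAS1, EGLN3 or ADM was measured. The antisense RNA HIF1A-AS1, which overlaps HIF1A, had 3.35 with ruxolitinib and 3.56 with DMSO (log2 change -0.22 ± 0.18). BHLHE40-AS1, which overlaps BHLHE40, had 3.25 with ruxolitinib and 3.20 with DMSO (0.04 ± 0.18). Both antisense RNAs lay far below the median level of all genes, where a change could not be seen if the signal was background. Next to VEGFB, DNAJC4 had a change of 0.05 ± 0.21 and FKBP2 of -1.002 ± 0.42 (adjusted p = 0.456, limma), and PPP2R2D, which overlaps BNIP3, had 0.24 ± 0.19. The remaining 4, SNRPD2P2, RN7SL22P, TPM2 and RNF10P1, had changes of -0.24 to 0.19.

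The rest of the pathway was read from 3 lists: the machinery that controls HIF, other hypoxia-responsive genes, and HIF-regulated genes of glucose metabolism. Together they hold 86 genes, of which 78 were measured. In them 6 fell and 0 rose (limma), against 1.04% of all genes lower and 2.02% of those above the median level. At an unadjusted p under 0.05 (limma), 16 were lower and 1 higher. At that p, 2304 of all 33616 genes were lower and 901 higher. Of the 16808 above the median level, 2041 were lower and 607 higher. The lists, too, were put together with earlier results known. Their median log2 change was -0.15, against -0.02 for all genes and -0.07 for genes above the median level, and it was -0.0856 after quantile normalization and -0.0938 after cyclic loess. These calls were lost more readily than those of BHLHE40 and VEGFA. The list count was 0 without ruxolitinib replicate 2 or DMSO replicate 2, and 1 without DMSO replicate 3. It was 2 without ruxolitinib replicate 1 or ruxolitinib replicate 3, 3 without both arrays that stood apart and 2 after quantile normalization. The count of all lower genes fell too, from 350 to 98 without ruxolitinib replicate 2 and 108 without DMSO replicate 2. Other fits kept more of the 350 while the list still lost calls. Omitting DMSO replicate 3 kept 205 of them but 1 of the 6 list genes. Dropping ruxolitinib replicate 1 kept 244 and 2, and dropping both arrays that stood apart kept 293 and 3. Why the list calls were lost was not tested.

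Of 18 measured genes of the HIF machinery, 1 fell, against 1.04% of all genes. This was HSP90AB1, a chaperone that binds HIF alpha subunits (-0.95 ± 0.17; adjusted p = 0.026, limma). It passed in 1 of 6 fits with an array omitted (adjusted p up to 0.137, limma). It missed the threshold when both arrays that stood apart were omitted (adjusted p = 0.0583, limma). ARNT, the partner of the alpha subunits, had 12.90 ± 0.13 with ruxolitinib and 12.79 ± 0.19 with DMSO (SD, n = 3 each), a log2 change of 0.11 ± 0.18. The change was -0.05 ± 0.20 for VHL, which recognises hydroxylated alpha subunits, 0.02 ± 0.20 for EGLN2, another prolyl hydroxylase, and 0.09 ± 0.18 for HIF1AN, the asparaginyl hydroxylase. The list median was -0.12, but 0.01 after quantile normalization and 0.000214 after cyclic loess.

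Among 42 other hypoxia-responsive genes 4 fell and 0 rose (limma), against 1.04% of all genes lower and 2.02% of those above the median level. At an unadjusted p under 0.05 (limma), 6 were lower and 0 higher, against 2304 and 901 of all 33616 genes. DDIT4, an inhibitor of mTORC1 induced by hypoxia and by other stresses, had 10.72, 10.22 and 9.99 with ruxolitinib, against 11.64, 12.65 and 13.02 with DMSO (log2 change -2.13 ± 0.32; adjusted p = 0.00897, limma). P4HA1, a subunit of the enzyme that hydroxylates collagen, had 8.99, 9.01 and 9.27 with ruxolitinib, against 9.97, 10.40 and 10.11 with DMSO (-1.07 ± 0.19; adjusted p = 0.0199, limma). FAM162A, a mitochondrial protein, had 9.24, 9.40 and 9.11 with ruxolitinib, against 10.17, 10.25 and 10.21 with DMSO (-0.96 ± 0.17; adjusted p = 0.0213, limma). KDM4B, a histone demethylase, had 6.93, 6.74 and 6.99 with ruxolitinib, against 7.82, 7.74 and 7.64 with DMSO (-0.85 ± 0.17; adjusted p = 0.0400, limma). In all 4 genes the ruxolitinib arrays lay below the DMSO arrays with no overlap. They are named because they passed as lower, so this adds no support. It held for 7 of the 42 genes, and for 9.03% of all genes. With each array omitted in turn, DDIT4 passed in 4 of 6 fits (adjusted p = 0.0778 without ruxolitinib replicate 2 and 0.0678 without DMSO replicate 2, limma), P4HA1 in 2 (adjusted p up to 0.13), and FAM162A and KDM4B in none (adjusted p up to 0.114 and 0.211). Without both arrays that stood apart, FAM162A (adjusted p = 0.0875, limma) and KDM4B (0.115) did not pass, and DDIT4 and P4HA1 did. The list median was -0.11, and -0.0689 after quantile normalization and -0.0848 after cyclic loess.

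Glucose metabolism had the lowest median of the 3 lists, -0.38, with 15 of 18 measured genes below 0. It was -0.28 after quantile normalization and -0.30 after cyclic loess. In 7 of the 18, every ruxolitinib array lay below every DMSO array (9.03% of all genes, and 2336 of the 16808 above the median level). In 1, PFKL, named after its value was seen, every one lay above (5.14% of all genes, and 829 of those 16808). The PFKL change was 0.59 ± 0.19 (adjusted p = 0.259, limma). At an unadjusted p under 0.05 (limma), 8 of the 18 were lower and 1 higher, against 2304 and 901 of all 33616 genes. Only HK2, a hexokinase, passed the test (-1.18 ± 0.25; adjusted p = 0.0475, limma), against 1.04% of all genes lower. It passed in 1 of 6 fits with an array omitted (adjusted p up to 0.217, limma). Without both arrays that stood apart its change was -1.53 (adjusted p = 0.00982, limma). The glucose transporter SLC2A1 had 9.52 ± 0.29 with ruxolitinib and 10.27 ± 0.49 with DMSO (log2 change -0.75 ± 0.25; adjusted p = 0.295, limma). LDHA, which makes lactate, had 16.24 ± 0.09 with ruxolitinib and 17.05 ± 0.20 with DMSO (-0.82 ± 0.18; adjusted p = 0.0583, limma), and PGK1 had 12.56 ± 0.40 with ruxolitinib and 13.23 ± 0.26 with DMSO (-0.67 ± 0.23; adjusted p = 0.31, limma). PDK1, a kinase that restrains entry of pyruvate into mitochondria and a HIF target, had 0.03 ± 0.19.

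**Figure D3:**
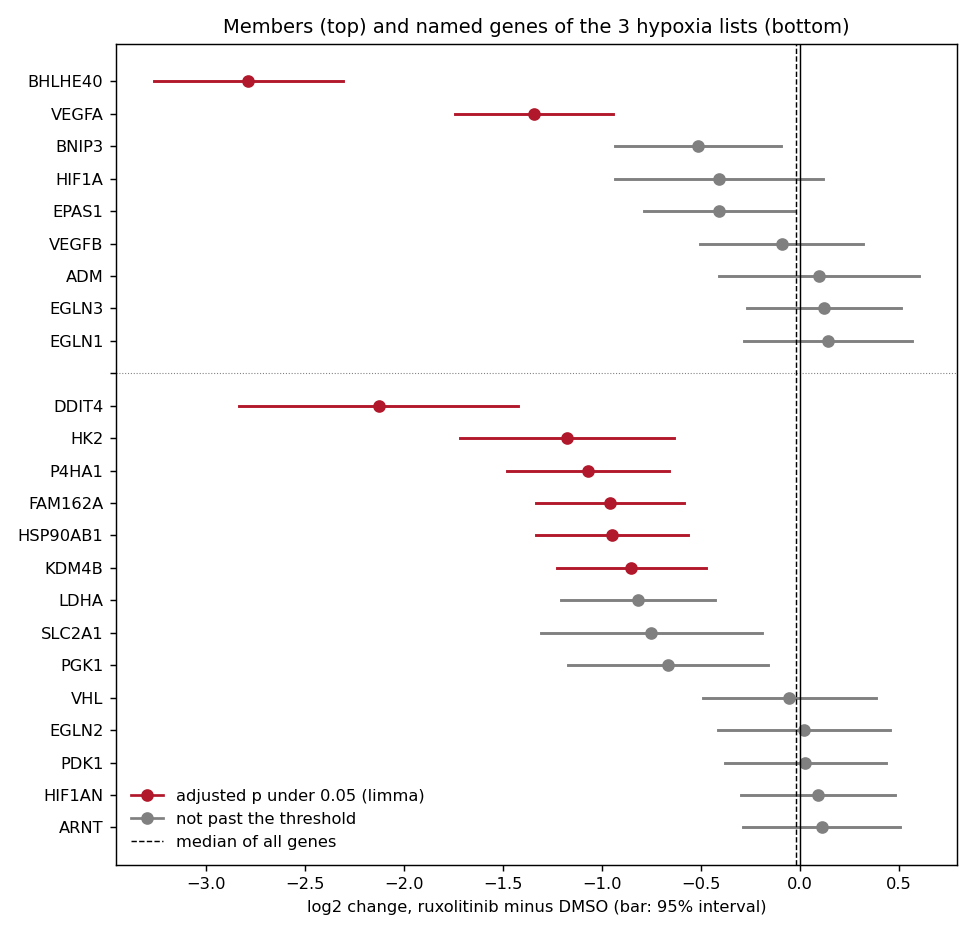
Log2 change (ruxolitinib minus DMSO, horizontal axis) with its 95% interval for the 9 measured genes (above the dotted line) and named genes of the 3 hypoxia lists (below it); red marks an adjusted p under 0.05 (limma), and the dashed line the median of all genes (-0.02). BHLHE40, DDIT4 and VEGFA lie farthest to the left. HIF1A, VEGFB, ADM, EGLN1, EGLN3, ARNT, VHL, EGLN2, HIF1AN and PDK1 have intervals on both sides of 0.

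ACGTG was found in at least 1 upstream window of all 6 list genes that fell (DDIT4, P4HA1, FAM162A, KDM4B, HSP90AB1 and HK2), of 33 of the 60 other measured list genes that have an entry (55.0%), and of 21.7% of the 27305 genes in the table. Among the measured members with an entry, it was found for the 1 that fell and for 2 of the 7 others. A gene may have more than 1 window, as HK2 and HSP90AB1 do, which gives more chances of a match. Whether the matches bear on the falls was not tested.

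The relatives of the target genes gave 1 call. BHLHE41, the closest relative of BHLHE40, had 4.49, 4.52 and 4.79 with ruxolitinib, against 4.71, 4.85 and 5.01 with DMSO, a log2 change of -0.26 ± 0.18. These levels, like that of BHLHE40 with ruxolitinib, lay below the median of all genes, where signal was not told from background, so neither this change nor the ratio shows how BHLHE41 RNA behaved. The ratio of BHLHE40 to BHLHE41 on the same array was lower with ruxolitinib by 2.53 on the log2 scale (difference -2.53), without overlap (exact permutation p = 0.1, the smallest possible, and 0.2 adjusted over the 4 pairs). This ratio mostly restates the fall of BHLHE40, a gene chosen with earlier results known, and adds no support. BHLHE40 represses genes of the circadian clock, and of 14 measured clock genes and relatives 0 passed (limma; 2 with an unadjusted p under 0.05, both lower), with a median of -0.26. PER2 had -0.87 ± 0.25 (adjusted p = 0.171, limma), NR1D1 -0.63 ± 0.19 (adjusted p = 0.206, limma) and TEF -0.38 ± 0.18. Of 9 measured genes of mitophagy and relatives of BNIP3, 0 passed (limma; 1 with an unadjusted p under 0.05, lower), with a median of -0.25. GABARAPL1 had -0.55 ± 0.19, FUNDC1 -0.25 ± 0.18 and MAP1LC3B -0.29 ± 0.21. For lists of 14 and 9 genes, no call is near the 1.14% of all genes called either way. Of the 14 other carbonic anhydrases, which belong to the family of CA9, 1 fell, against 1.04% of all genes. This was CA6, a secreted enzyme (-3.28 ± 0.32; adjusted p = 0.000475, limma). Its ruxolitinib level of 5.82, 5.82 and 4.45, against 8.77, 8.53 and 8.63 with DMSO, was near or below the median of all genes, so the size of its fall may be understated.

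**Figure D4:**
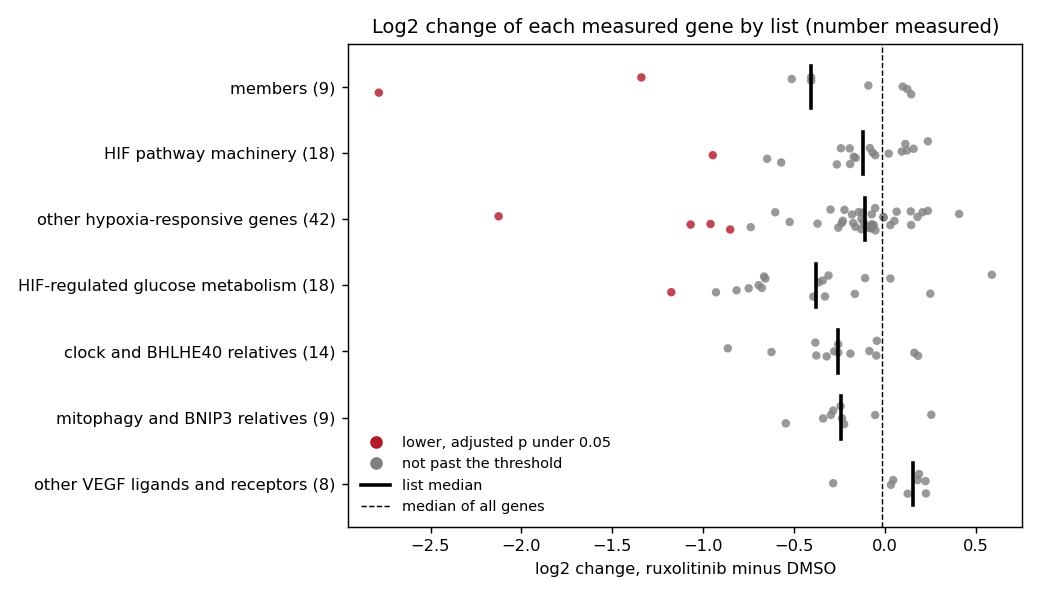
Log2 change (ruxolitinib minus DMSO, horizontal axis) of each measured gene, by list, with the number measured in brackets; red points passed the test as lower, thick bars are list medians and the dashed line is the median of all genes (-0.02). The medians run from -0.41 for the 9 genes described here and -0.38 for glucose metabolism to 0.15 for the other VEGF ligands and receptors, and most points are grey.

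The search for genes of like pattern took genes brighter on average than the median gene, without uncharacterised loci, LINC, microRNA, small RNA, olfactory receptor and open reading frame symbols, which left 14169. Those whose level over the 6 arrays followed VEGFA most closely were CR2 (Pearson r = 0.998), FAM162A (0.998) and CHI3L2 (0.996). For BHLHE40 they were RRS1 (0.996), TOMM20P2 (0.995) and SAV1 (0.994), and for HIF1A they were PTPLB (0.998), TRA2A (0.991) and YARS (0.990). The 6 arrays fall into 2 groups, so for BHLHE40 and VEGFA these values mostly restate the difference between groups, and they are given as a description with no test. The likeness is in shape and not in size: SAV1 had a log2 change of -0.42 and RRS1 of -1.13, against -2.78 for BHLHE40. The genes closest to HIF1A were not called either (adjusted p of 0.614, 0.853 and 0.492, limma).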

How the data were processed

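Total RNA of 6 samples was labelled with biotin and hybridised to Affymetrix arrays. The authors deposited a log2 signal for each transcript cluster, the scale being read from its range of 1.99 to 19.92. Per the submitters' processing notes the tools were RMA, Transcriptome Analysis Console and Affymetrix Expression Console, with roles, order, versions and genome build not given in the sources used here. Array medians lay between 4.51 and 4.59. Precision is limited by the number of arrays, with a median 95% half-width of 0.44 for a log2 change. Detection calls were not used here.

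The platform annotation gave 36176 of 135750 rows exactly 1 gene symbol. Symbols were updated through Entrez identifiers with the RefSeq table of GRCh38.p14 (25516 rows matched), and each of 33616 genes was represented by its brightest row. Groups were compared with limma 3.58.1 under R 4.3.3 (group as the only term, moderated by eBayes, two-sided, with Benjamini-Hochberg adjustment over all genes, threshold 0.05), a fit also tested on simulated data. The named genes are the members, genes of each list past the threshold (or the 3 with the smallest adjusted p where none passed), a few pathway genes fixed by name, each member's neighbours, and the 3 genes most like VEGFA, BHLHE40 and HIF1A. The members and lists were chosen with earlier results of these data known, as were the alternatives, and no list was tested as a set.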

Additional observations from a re-analysis of the deposited data

How the results depend on the processing

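Leaving out each array in turn, the replicate number as a block, quantile normalization, cyclic loess, a mean-variance trend with robust moderation, array weights, a filter on dim genes, all rows tested, the mean over a gene's rows, thresholds of 0.1 and 0.01, and leaving out both arrays that stood apart were tried. BHLHE40 passed the test under all of these, but it met the filter on dim genes only through its DMSO level, so that filter is no support for it. VEGFA passed under all but the test of all rows, where 1 of the 9 members was lower in place of 2. The counts of members higher and of hypoxia list genes higher were 0 throughout (limma). The labels do not say whether same-numbered arrays were paired. Their deviations from the group means correlated at -0.21, -0.08 and -0.40. With 3 arrays per group, these values cannot exclude a shared culture or batch. With the replicate block, 116 genes were lower and 6 higher, 2 members were lower, and 0 hypoxia list genes were lower, so that all 6 lost their call, with adjusted p from 0.0513 for DDIT4 to 0.174 for KDM4B (limma). With 1 array left out, 98 to 280 genes were lower, 3 to 28 higher, and 0 to 4 hypoxia list genes lower, while 2 members were lower each time. Quantile normalization gave 220 lower and 56 higher genes and 2 lower list genes, and cyclic loess 59 higher genes. With all rows tested, 74 genes were lower and 3 higher, and 0 list genes were lower. At 0.1 there were 530 lower and 63 higher genes, and at 0.01 there were 135 and 5, with 1 list gene lower. Without both arrays that stood apart 3 list genes were lower. Changes of the uncalled VEGFB lay between -0.167 and 0.0474 with 1 array left out, turning sign in the absence of ruxolitinib replicate 3, after quantile normalization (0.0911), after cyclic loess (0.0461) and without both arrays (0.12). Those of the uncalled ADM lay between -0.0458 and 0.317 with 1 array left out, turning sign in 3 of these 6 fits and without both arrays (-0.15). The causes were not tested. Signal over background limits EGLN3, EPAS1, BHLHE41, KDR, the adrenomedullin receptor genes, the antisense RNAs and the treated levels of BHLHE40 and CA6. These lie near or below the median level of all genes.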

Other observations

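Rows annotated with a list gene and another symbol at once stood outside the comparisons. The row shared by MIR210HG and MIR210, the host transcript and gene of a hypoxia-induced microRNA, had a log2 signal of 5.11, 5.35 and 5.48 with ruxolitinib, against 5.47, 5.06 and 4.93 with DMSO, and the groups overlapped. The row shared by EP300, a coactivator of HIF, and MIR1281 had 11.05, 10.57 and 10.97 with ruxolitinib, against 11.45, 11.23 and 11.07 with DMSO, with no overlap (log2 change -0.39 ± 0.20; adjusted p = 0.892 over all rows, limma). The row shared by PINK1, a kinase of mitophagy, and MIR6084 had 6.02, 6.45 and 5.60 with ruxolitinib, against 5.004, 5.26 and 5.81 with DMSO (0.67 ± 0.28; adjusted p = 0.833 over all rows, limma). The row shared by PFKFB4, an enzyme of glucose metabolism, and MIR6823 had a mean of 4.84 in both groups.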
